A study of Mus musculus with 30 samples.

Results

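Hippocampal cells with an active maternal X chromosome (Xm cells) were compared between old and young female mice. The comparison used the 10 Xm samples of the age series, 5 old and 5 young, of 30 samples in all. The members were chosen by their labels alone, as old or young and Xm, and no measured value entered the choice. The question was which transcripts differ with age in cells that use the maternal X.

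The mice carried a Cre-activated nuclear GFP reporter on the maternal X and a tdTomato reporter on the paternal X, both at the Hprt locus, on a C57BL/6J background, and Cre under the synapsin 1 promoter switched them on. A GFP-positive cell was therefore an Xm cell and a tdTomato-positive cell from the same hippocampi a cell with an active paternal X (Xp cell). Hippocampi of several mice were pooled for each sample, passed through a density gradient and sorted. Old and young groups thus shared strain, reporters, Cre and sorting, and the labels name no treatment. The old and young samples came from different mice and were deposited in separate tables, so that age and any difference in preparation between the 2 sets cannot be told apart.

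RNA was sequenced in bulk, so that fewer cells of a type and less RNA per cell cannot be told apart. Reads in genes numbered 23465058 to 27877893 in the old samples and 26651599 to 28518774 in the young samples. All values below are normalised counts, that is reads per gene divided by a size factor that sets the 10 samples to a common scale. A gene was called where limma, a linear model fitted over all 18948 genes tested, gave a Benjamini-Hochberg adjusted p under 0.05. Fold changes are on the scale of log2(normalised count + 1), with their standard error (SE), and are given as old over young.

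The labels name the cells neurons. Per kilobase of exon, 10 neuronal markers averaged 341 to 557 normalised counts in the old samples and 337 to 1073 in the young samples. On the same scale, 12 oligodendrocyte markers averaged 13229 to 21751 in old and 7367 to 19038 in young samples, and 10 astrocyte markers 2488 to 3754 and 1019 to 10659. Rbfox3, which encodes the neuronal nuclear protein NeuN, had a median of 64.4 per kilobase in old and 65.1 in young samples, against 8275 and 8735 for the myelin gene Mog. Oligodendrocyte transcripts therefore stood above neuronal ones in each of the 10 samples, and the samples are called Xm samples here, not neurons.

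Young samples 1 and 2 stood apart from the other 8. On the first principal component, which held 33.8% of the variance, they lay at -90.9 and -72.6, and the other samples between -4.93 and 41.4. They held more of some neuronal transcripts, with Snap25 at 28572 and 11451 against 5353 to 8273 in young samples 3 to 5, and less of the astrocyte filament gene Gfap, at 1514 and 2375 against 14204 to 19654. Their part in the age differences was examined by leaving both out, an alternative chosen after the data were seen.

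Ageing of the rodent hippocampus is known for an increase of inflammatory and complement transcripts in glia, for entry of T cells into the parenchyma and for a decline in the birth of new neurons. Complement proteins tag synapses and debris for uptake by microglia, the resident macrophages of the brain. Myelin is turned over throughout life by oligodendrocytes, which arise from dividing precursors. Female cells silence one X chromosome through the noncoding RNA Xist, so that Xm and Xp cells coexist in one tissue.

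The regions before the transcription starts of 4 genes on which the comparison turned are shown, because their transcripts were among those with the largest or the most certain differences. They were read from RefSeq on GRCm38.p6 and cut where an annotated exon of the gene begins, so that they hold no annotated exon bases of the gene. Klk6 encodes a secreted serine protease made by oligodendrocytes, and RefSeq gives it 2 starts, the second of which lies inside the gene, so that its window is intronic in transcripts from the first. Serpina3n encodes a secreted serine protease inhibitor induced in reactive astrocytes and some oligodendrocytes. Spp1 encodes osteopontin, a secreted matrix protein, and the first of its 2 starts is shown. Nrarp encodes a small ankyrin-repeat protein that is induced by and restrains Notch signalling. Capitals mark matches to the motifs named after the sequences.

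Klk6, first start, chr7:43824294-43824498, plus strand: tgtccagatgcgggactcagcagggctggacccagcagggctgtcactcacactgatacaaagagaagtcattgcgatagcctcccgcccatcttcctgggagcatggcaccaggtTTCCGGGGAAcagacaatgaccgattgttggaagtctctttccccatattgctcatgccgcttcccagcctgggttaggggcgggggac
Klk6, second start, chr7:43825200-43825394, plus strand: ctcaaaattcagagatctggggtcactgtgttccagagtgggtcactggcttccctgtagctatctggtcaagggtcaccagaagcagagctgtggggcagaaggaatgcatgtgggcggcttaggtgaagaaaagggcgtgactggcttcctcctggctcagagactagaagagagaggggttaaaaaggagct
Serpina3n, chr12:104406458-104406707, plus strand: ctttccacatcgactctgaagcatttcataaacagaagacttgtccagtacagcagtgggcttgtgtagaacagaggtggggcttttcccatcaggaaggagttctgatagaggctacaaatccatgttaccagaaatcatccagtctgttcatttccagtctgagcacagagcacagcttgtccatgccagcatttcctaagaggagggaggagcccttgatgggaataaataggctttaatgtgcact
Spp1, first start, chr5:104434861-104435110, plus strand: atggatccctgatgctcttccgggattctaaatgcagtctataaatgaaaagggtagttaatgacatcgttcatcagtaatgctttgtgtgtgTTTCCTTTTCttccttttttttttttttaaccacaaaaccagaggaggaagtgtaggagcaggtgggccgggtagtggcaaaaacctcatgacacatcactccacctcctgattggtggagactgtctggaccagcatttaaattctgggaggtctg
Nrarp, chr2:25180508-25180757, plus strand: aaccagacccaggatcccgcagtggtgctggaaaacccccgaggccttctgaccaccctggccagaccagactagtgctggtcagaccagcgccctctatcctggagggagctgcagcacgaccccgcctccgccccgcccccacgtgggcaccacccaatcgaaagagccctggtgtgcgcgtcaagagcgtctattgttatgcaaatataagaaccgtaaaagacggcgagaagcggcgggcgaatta

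Motifs were searched on both strands of the 250 bases before each start. They were the AP-1 motif TGANTCA, the interferon-stimulated response element GAAANNGAAA, the STAT motifs TTCNNNGAA and TTCNNNNGAA, the cyclic AMP response element TGACGTCA and the RBPJ motif GTGGGAA. In the windows shown, the first start of Klk6 held TTCNNNNGAA at bases 117 to 126, and Spp1 held GAAANNGAAA on the reverse strand at bases 94 to 103. Of 32851 RefSeq promoters of the same length, 5.85% held the former and 2.98% the latter, and the other 4 motifs were held by 6.75%, 7.02%, 1.55% and 5.42% in the order given. The match is a description of letters only. The windows of Gadd45b, Rras2 and the second start of Spp1 were searched too, held no match and are not shown. Promoter entries for C4b and Cd52 were not used here.

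In old Xm samples, transcripts of a myelin-associated protease (Klk6), complement (C4b), a protease inhibitor (Serpina3n), osteopontin (Spp1) and a T cell receptor complex chain (Cd3g) were higher, and transcripts of a Notch-pathway inhibitor (Nrarp), a small GTPase (Rras2) and a progenitor and glial membrane protein (Prom1) were lower. Of 18948 genes, 161 were called (0.85%), of which 98 were higher (0.517%) and 63 lower (0.332%) in old samples. At least a doubling was fitted for 50 of the higher genes and at least a halving for 21 of the lower genes. At an unadjusted p under 0.05 there were 3849 genes (20.3%), 2116 of them higher (11.2%) and 1733 lower (9.15%). Of all genes, 6.63% had old and young values that did not overlap, and so had each of the 161. With count models on the recovered reads, edgeR called 175 genes (0.924%) and DESeq2 1723 (9.09%), shares against which the DESeq2 counts given for lists below are to be read. Among the 652 X-linked genes, 15.3% had an unadjusted p under 0.05. The median log2 fold change over all genes was -0.00156.

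One gene stood clear of the others. Klk6 had an adjusted p of 5.12e-06 by limma, and the other 160 genes had adjusted p-values between 0.034 and 0.0493, so that most calls stood close to the threshold together. Leaving out old sample 2, 3, 4 or 5, or young sample 4, left 1 called gene, Klk6, and leaving out young sample 2 left 4, among them Klk6, Gadd45b and Coro2b. Leaving out the other 4 samples in turn left between 55 and 223 genes. In a fit of all 20 Xm and Xp samples, which share one estimate of the spread, 1076 genes were called (5.68%). Without young samples 1 and 2 together, 796 genes were called (4.2%), of which 269 were higher and 527 lower, and 155 of the 161 genes were among them. The sign of the 161 differences held in each of the 22 alternatives in which the gene was tested.

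**Figure D1:**
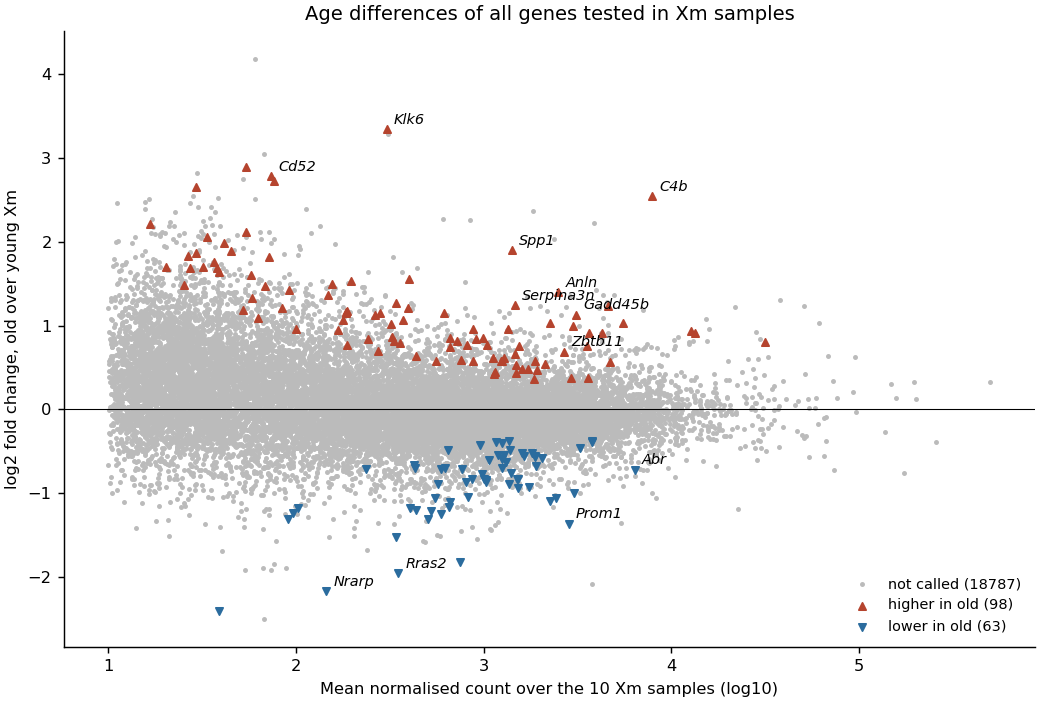
Each point is a gene, with its mean normalised count over the 10 Xm samples on the horizontal axis (log10) and its log2 fold change of old over young on the vertical axis; triangles mark the 98 genes called higher and the 63 called lower. Klk6 lies at 3.35 and C4b, at a higher count, at 2.55.

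**Figure D2:**
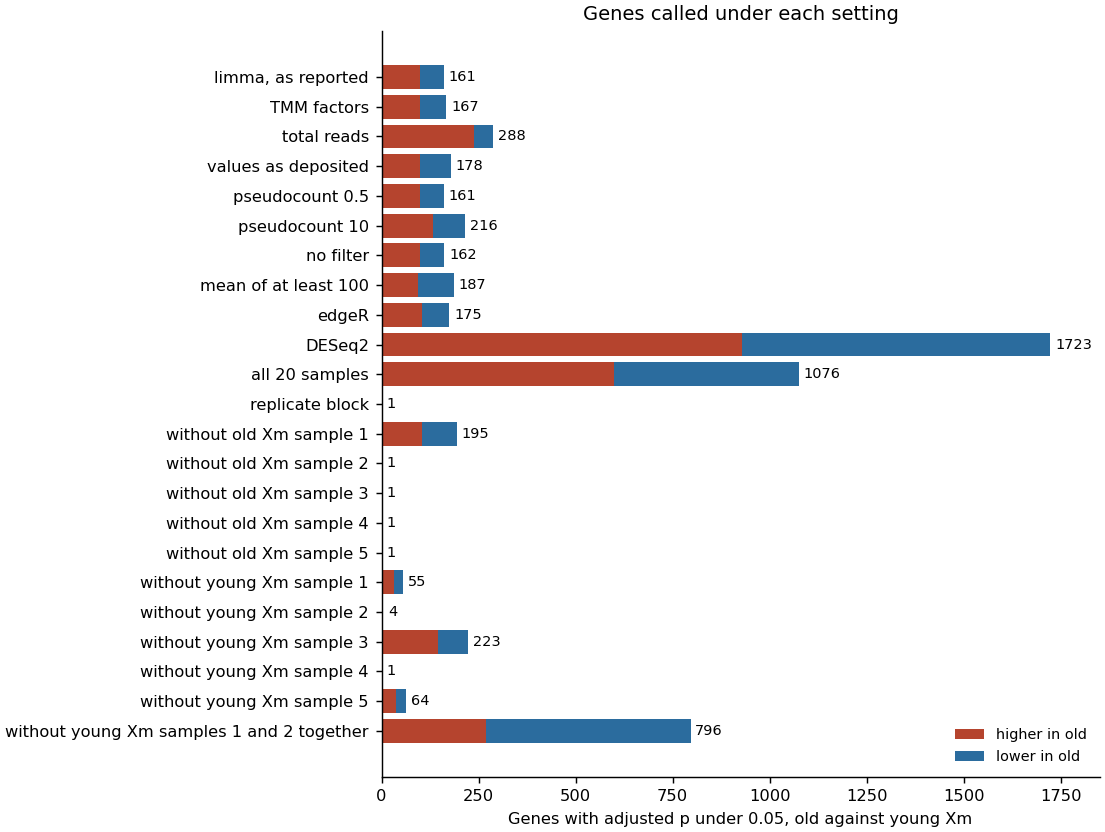
Bars give the number of genes called under each setting, split into higher and lower in old samples. The number lies between 161 and 216 under changes of scaling other than total reads, pseudocount or filter and with edgeR, but falls to 1 when any of 5 single samples is left out.

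Klk6 (ENSMUSG00000050063, chromosome 7, 43824499 to 43832030, plus strand) had the difference with the smallest p. Its normalised counts were 508, 609, 441, 528 and 687 in old samples 1 to 5 and 48.6, 50.7, 50.7, 57.5 and 58.0 in young samples 1 to 5. The lowest old sample lay far above the highest young one, and young samples 1 and 2 lay beside the other young samples. The log2 fold change was 3.35 ± 0.15 (SE, n = 5 and 5; limma adjusted p = 5.12e-06), a 10.2-fold difference, and the gene was called in 22 of 22 alternatives.

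C4b (chromosome 17, 34728380 to 34743882, minus strand) encodes complement component C4, which is cleaved to label surfaces in the classical and lectin pathways. Its counts were 12062, 17440, 10300, 9909 and 16478 in old samples and 1063, 1232, 4126, 2799 and 3411 in young samples. Groups did not overlap, and the lowest young values were those of samples 1 and 2. The log2 fold change was 2.55 ± 0.38 (limma adjusted p = 0.034), and 1.92 without young samples 1 and 2 (adjusted p = 0.0081). C4a, its near-identical neighbour, was also called, at 72.3 to 94.5 in old and 15.4 to 46.4 in young samples, and how reads were split between the 2 genes is uncertain.

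Serpina3n (chromosome 12, 104406729 to 104414329) measured 1601, 2123, 1892, 2004 and 2643 in old and 915, 1064, 623, 767 and 978 in young samples. Its log2 fold change was 1.24 ± 0.17 (limma adjusted p = 0.034), and 1.38 without young samples 1 and 2. The lowest old value lay above the highest young value. Serpina3n belongs to a cluster of similar serpin genes, between which reads may have been shared.

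Anln, which encodes the actin-binding protein anillin of the cytokinetic ring and is also abundant in myelinating oligodendrocytes, measured 3173, 4020, 2736, 3099 and 4823 in old and 763, 925, 1654, 1820 and 1931 in young samples (log2 fold change 1.40 ± 0.27, limma adjusted p = 0.0478). Young samples 1 and 2 were the 2 lowest, and without them the log2 fold change was 0.96 (limma adjusted p = 0.0199). With edgeR the adjusted p of Anln was 0.0507, so that the call was lost there. Pmp22, a myelin protein gene of peripheral nerve, was picked out after its values were seen. It was called (limma adjusted p = 0.0457), with 6755 to 8221 in old and 2156 to 4637 in young samples. Of 20 myelin sheath genes, 0 were called by limma or edgeR, 1 was higher and 1 lower at an unadjusted p under 0.05, DESeq2 called 1 lower, and the median log2 fold change was 0.09, against -0.20 without young samples 1 and 2. The median of 12 oligodendrocyte markers likewise went from 0.13 to -0.21. Young sample 1 had the lowest mean log2 level of the myelin list, 12.8, and the other 9 Xm samples lay between 13.3 and 14.1.

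Spp1 (chromosome 5, 104435118 to 104441050) measured 2200, 3607, 2245, 2137 and 956 in old and 567, 276, 762, 517 and 815 in young samples. Old sample 5 lay just above the highest young sample, and the other 4 old samples lay at 2137 or more. The log2 fold change was 1.90 ± 0.36 (limma adjusted p = 0.0441), and without young samples 1 and 2 it was 1.58 with an adjusted p of 0.059, so that the call was lost there. Cst7, which encodes the protease inhibitor cystatin F of activated microglia, measured 79.6, 96.6, 94.7, 60.2 and 29.8 in old and 18.5, 22.4, 19.1, 12.3 and 15.5 in young samples (log2 fold change 1.89 ± 0.34, adjusted p = 0.0405).

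Spp1 and Cst7 were the 2 of 22 damage-associated microglia genes called by limma, which called 0.85% of all genes. DESeq2 called 7 higher and 2 lower, and 8 were higher and 2 lower at an unadjusted p under 0.05. Clec7a, a receptor for fungal glucans of the same state, had counts of 256, 297, 342, 83.2 and 16.6 in old and 9.24 to 33.5 in young samples, and old sample 5 lay within the young range (log2 fold change 2.40 ± 0.77, limma adjusted p = 0.123). Old sample 5 also held the fewest microglial transcripts. The mean log2 level of 20 microglial markers was 6.63 in that sample and up to 9.42 in the other old samples, against 7.15 to 9.06 in young samples. The microglial list had a median log2 fold change of 0.75, with 20 of 20 genes above 0 and 0 called by limma, edgeR or DESeq2 (2 at an unadjusted p under 0.05), and the median was 0.47 without young samples 1 and 2. Cx3cr1, one of the 20 microglial markers, measured 83.9 to 676 in old and 101 to 520 in young samples. The part of microglial content in the values of Spp1, Cst7 and Clec7a was not tested.

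Cd3g and Cd52 were higher in old samples. Cd3g, a chain of the CD3 complex, measured 79.6, 80.6, 36.5, 27.4 and 33.1 in old and 7.78, 1.95, 9.56, 10.3 and 6.77 in young samples (log2 fold change 2.66 ± 0.46, limma adjusted p = 0.0399). Old samples 1 and 2 held the most, and the groups did not overlap. Cd52, a surface glycoprotein gene of lymphocytes and also of microglia, measured 159, 181, 141, 60.2 and 96.0 in old and 4.11 to 39.2 in young samples (2.78 ± 0.51, adjusted p = 0.0411). Microglial markers had a mean log2 level of 12.2 to 13.3 in Xp samples, which were scaled apart, and 6.63 to 9.42 in Xm samples. In Xp samples, Cd52 measured 366 to 568 in old and 120 to 336 in young samples, and Cd3g 34.5 to 83.0 and 4.12 to 34.5. The part of microglial content in the Cd52 values was not tested.

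Of 6 T cell markers, 3 were in both tables and tested, and 1 of these was called by limma and 2 by DESeq2. Cd4 measured 84.6 and 122 in old samples 1 and 2, but 12 to 17.7 in old samples 3 to 5 and 8.21 to 25.8 in young samples (adjusted p = 0.276). Other called genes of lymphocytes, picked out after their values were seen, were Pdcd1 (38.4 to 88.6 in old and 6.83 to 19.1 in young), which encodes the inhibitory receptor PD-1, Itgal (50.8 to 165 and 11.7 to 35.4), the alpha chain of the integrin LFA-1, and the adaptor genes Sh2d2a (48.6 to 155 and 3.90 to 24.9) and Lax1 (33.9 to 58.2 and 8.70 to 15.4). Genes this low had, as a class, a positive shift: the median log2 fold change was 0.28 over the 5712 genes with a mean of 10 to 100, -0.05 over those from 100 to 1000 and -0.07 above.

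Further T cell genes were in the old table only, where their values can be given but not compared. On the scale of the deposited old table, Cd3e measured 27.6, 31.9, 16.4, 35.0 and 18.9 in old Xm samples 1 to 5, Nkg7, a granule protein gene of cytotoxic cells, 103, 166, 72.2, 25.4 and 59.9, and Icos, a costimulatory receptor gene, 30.5, 72.9, 22.2, 24.4 and 37.8. The lowest sum that either table listed over its 10 columns was 97.6 in the old and 98.8 in the young table, so that a gene absent from the young table may have been under such a floor. No fold change was computed for these genes.

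The mean level of the B cell list was low and did not overlap between groups. By gene, 3 of the 5 tested lay apart, against 6.63% of all genes. Cd79b, the beta chain of the B cell receptor signalling dimer, was called, with 27.9, 33.8, 17.8, 20.8 and 37.5 in old and 2.05 to 10.7 in young samples (log2 fold change 2.21 ± 0.41, limma adjusted p = 0.0426). Of 5 B cell genes tested, 1 was called by limma and edgeR, 4 by DESeq2, and 5 were higher at an unadjusted p under 0.05, and the median log2 fold change was 2.21. Cd79a measured 27.4 to 77.2 in old and 0 to 16.3 in young samples, with an adjusted p of 0.0745. The mean log2 level of the list was 5.66 to 6.27 in old and 2.68 to 5.00 in young samples.

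MHC class II genes, which present peptides to CD4 T cells, had the largest median among the lists, 2.22, but 0 of 7 were called by limma or edgeR (6 at an unadjusted p under 0.05), and DESeq2 called 4. H2-Ab1 measured 3867, 5670, 4054, 1349 and 566 in old and 761, 621, 918, 145 and 295 in young samples (log2 fold change 2.36 ± 0.68, limma adjusted p = 0.0992). Old samples 1 to 4 lay above the young range and old sample 5 within it. The mean log2 level of the class II list was 9.88, 10.3, 9.84, 8.73 and 7.81 in old samples 1 to 5, beside 9.16, 9.26, 9.42, 8.29 and 6.63 for the microglial markers. Both were lowest in old sample 5 and next lowest in old sample 4. In young samples 1 to 5 the class II level was 8.44, 7.98, 8.19, 6.45 and 7.4. The microglial level there was 7.39, 7.39, 8.04, 7.15 and 9.06, highest in young sample 5, where the class II level was not. The part of microglial content in the class II values was not tested. Of 15 genes of MHC class I and peptide loading, 0 were called by limma or edgeR, 4 by DESeq2, and 8 were higher at an unadjusted p under 0.05, with a median of 0.71.

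Of 30 interferon-stimulated genes, Ifit2 was called, and 8 were higher at an unadjusted p under 0.05. Ifit2, which encodes an antiviral protein that binds RNA, measured 1367, 1158, 1266, 1241 and 1515 in old and 543, 859, 798, 812 and 870 in young samples (log2 fold change 0.77 ± 0.14, limma adjusted p = 0.0405). The median of the list was 0.44, and 29 of 30 values were above 0. Zbp1, a sensor of Z-form nucleic acids, lay at the threshold, with 30.9 to 141 in old and 5.13 to 16.4 in young samples (adjusted p = 0.0501).

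Among the 15 complement genes listed, which did not include C4a, C4b was the one called. C3, the central component on which the pathways converge, measured 404, 1057, 696, 476 and 665 in old and 228, 185, 444, 118 and 119 in young samples, with old sample 1 below young sample 3 (log2 fold change 1.69 ± 0.38, adjusted p = 0.0605). C1qa, a microglial gene that starts the classical pathway, measured 61.8 to 850 in old and 150 to 604 in young samples (adjusted p = 0.624). The median of the list was 0.56, and 0.37 without young samples 1 and 2.

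Gadd45b and Zbtb11 were among the higher genes with the smallest p. Gadd45b, which is induced by stress and neuronal activity and acts in growth arrest and DNA demethylation, measured 4656, 4221, 4085, 3426 and 4951 in old and 1978, 1395, 2139, 1929 and 2388 in young samples (log2 fold change 1.13 ± 0.15, limma adjusted p = 0.034). Zbtb11, a zinc finger transcription regulator, measured 2997 to 3656 in old and 1809 to 2261 in young samples (0.69 ± 0.09, adjusted p = 0.034). Sgk1 and Sesn2 were picked out after their values were seen. Sgk1, a glucocorticoid-induced kinase gene, measured 35340 to 48866 in old and 20937 to 25553 in young samples (0.80 ± 0.12, adjusted p = 0.0386). Sesn2, a stress-induced inhibitor of mTORC1 signalling, measured 1306 to 1718 and 900 to 1060 (0.58 ± 0.09, adjusted p = 0.0399). Of 16 heat shock protein genes, which encode chaperones induced by stress, 0 were called by limma or edgeR and 4 by DESeq2, with 5 higher and 1 lower at an unadjusted p under 0.05 and a median of 0.08, which was 0.15 without young samples 1 and 2.

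Immediate early genes, which neuronal activity and tissue dissociation both induce, did not pass: 0 of 23 were called by limma or edgeR and 4 by DESeq2, although 15 were higher at an unadjusted p under 0.05 and the median was 0.66. Their low values lay in young samples 1 and 2. Fos measured 59168 to 74116 in old samples, 10113 and 13248 in young samples 1 and 2 and 49840 to 50818 in young samples 3 to 5. Its log2 fold change was 1.24 ± 0.46 (adjusted p = 0.174), and 0.39 without young samples 1 and 2. Egr2, a transcription factor gene of the same class, measured 2487, 3914, 3059, 3412 and 5560 in old and 358, 454, 1455, 1313 and 1562 in young samples (2.04 ± 0.43, adjusted p = 0.0553). Without young samples 1 and 2, 2 of the 23 genes were called. The part of dissociation in these values was not tested.

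Col6a3, a collagen VI chain, measured 207, 318, 205, 220 and 191 in old and 51.5 to 107 in young samples (log2 fold change 1.5 ± 0.24, limma adjusted p = 0.0399), and was the one called gene among 33 of collagens and matrix. Of the 33, DESeq2 called 4 higher and 1 lower, and without young samples 1 and 2, 3 were called higher and 2 lower. Adam19, a membrane metalloprotease gene, measured 415 to 694 in old and 189 to 301 in young samples (1.21 ± 0.17, adjusted p = 0.034). Trim17, a ubiquitin ligase gene, measured 373, 412, 508, 731 and 985 in old and 152 to 281 in young samples (1.56 ± 0.28, adjusted p = 0.0407). Pnlip, the pancreatic lipase gene, measured 183 to 266 and 49.7 to 127, the zinc finger gene Zfp473 109 to 186 and 33.2 to 72.9, and Lrrn4cl, which encodes a leucine-rich repeat membrane protein, 252 to 327 and 51.5 to 165. Of 7 pericyte markers, 0 were called by limma or edgeR and 2 by DESeq2, while 5 were higher at an unadjusted p under 0.05 (median 0.71, and 0.44 without young samples 1 and 2).

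**Figure D3:**
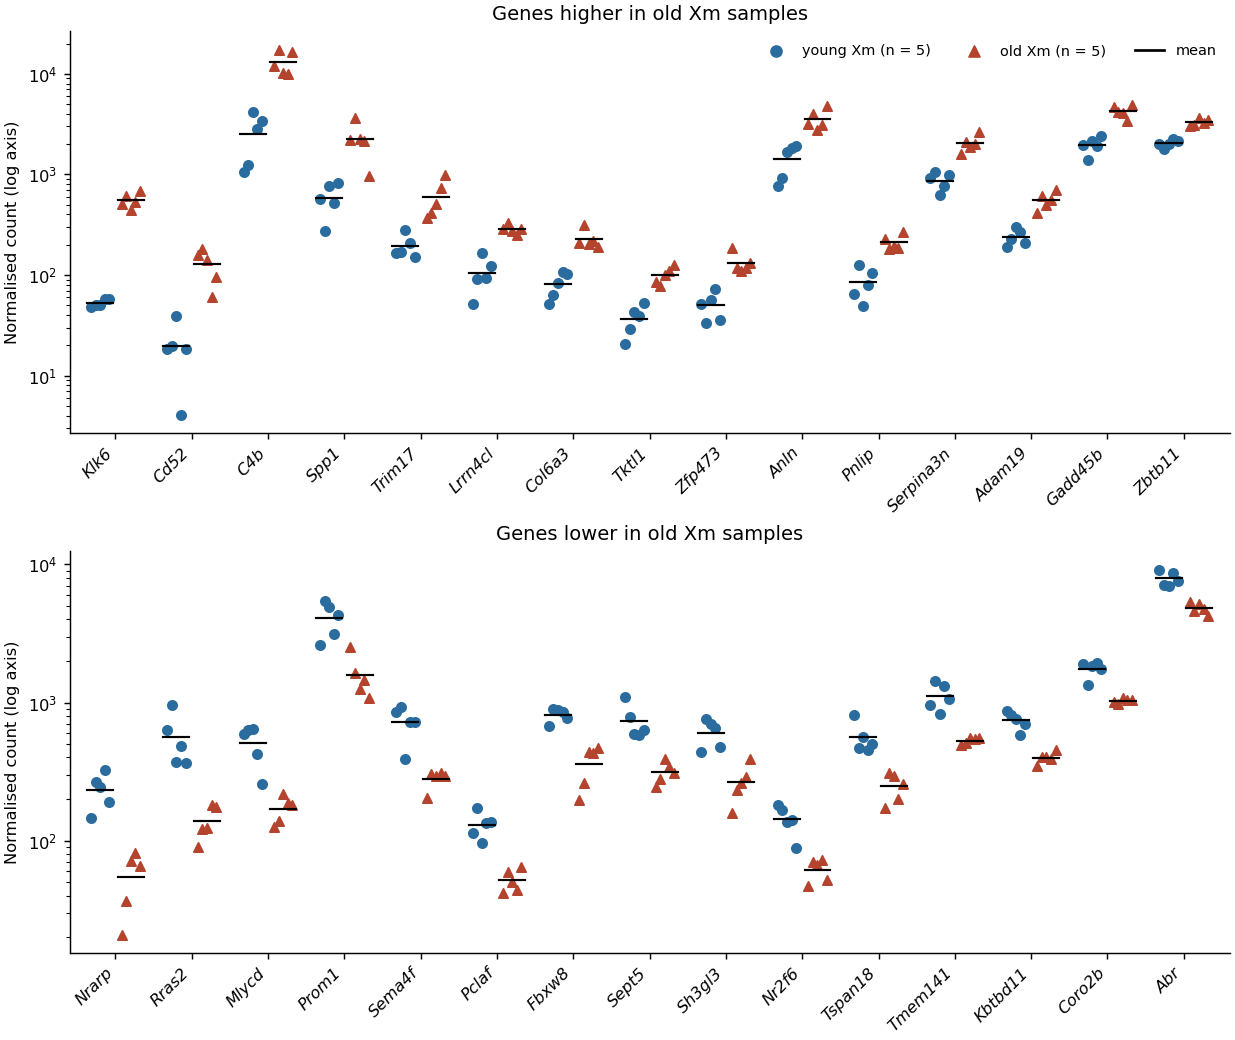
Each point is 1 sample's normalised count on a log axis, with circles for the 5 young and triangles for the 5 old Xm samples, and a bar for the mean of each group. The 30 genes were named for a large change or a small p among those whose groups do not overlap; Klk6 shows the widest gap between groups, with 441 or more in old and 58.0 or less in young samples.

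Among genes lower in old samples, Nrarp (chromosome 2, 25180758 to 25183339, plus strand) had the largest fitted change of those named. Its counts were 20.9, 36.6, 71.0, 81.0 and 65.1 in old and 146, 265, 245, 322 and 190 in young samples. The log2 fold change was -2.17 ± 0.37 (limma adjusted p = 0.0399), a 4.50-fold lower level. Of its exon bases, 79.4% also lie in the exons of a gene on the opposite strand, and since the library kit does not mark strand, reads of the 2 cannot be told apart. Smo, the Hedgehog signal transducer, was called too, picked out after its value was seen, at 447 to 683 in old and 795 to 1112 in young samples.

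Rras2, which encodes the small GTPase TC21, measured 90.6, 122, 123, 182 and 175 in old and 630, 953, 373, 480 and 366 in young samples, the highest young values being those of samples 1 and 2. The log2 fold change was -1.96 ± 0.29 (limma adjusted p = 0.034), and -1.58 without these samples. Old and young values did not overlap.

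Prom1, which encodes the progenitor and glial membrane protein CD133, measured 2519, 1643, 1259, 1458 and 1077 in old and 2606, 5464, 4908, 3146 and 4280 in young samples (log2 fold change -1.37 ± 0.25, limma adjusted p = 0.0426). Old sample 1 and young sample 1 were close, and the others were further apart. Pclaf, a partner of the replication clamp PCNA, measured 41.8 to 64.0 in old and 96.6 to 172 in young samples (-1.31 ± 0.21, adjusted p = 0.0399). Of 12 markers of dividing cells, 0 were called by limma or edgeR and 5 by DESeq2, and 5 were lower at an unadjusted p under 0.05, with a median of -0.69. Top2a, a topoisomerase gene of replicating cells, measured 113 to 216 in old and 302 to 386 in young samples (adjusted p = 0.0539), while the proliferation marker Mki67 measured 124 to 181 and 113 to 218 (adjusted p = 0.537).

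Of 10 markers of newborn neurons, 0 were called by limma or edgeR and 3 by DESeq2, and 4 were lower at an unadjusted p under 0.05 (median -0.32). Igfbpl1, a marker of immature granule neurons, measured 61.7, 85.3, 20.7, 25.2 and 18.8 in old and 115 to 156 in young samples (log2 fold change -1.90 ± 0.40, limma adjusted p = 0.0553). Neurod1, a transcription factor gene of granule neuron differentiation, measured 51.5 to 125 in old samples, 752 and 381 in young samples 1 and 2 and 144 to 151 in young samples 3 to 5 (-1.51 ± 0.47, adjusted p = 0.115). Dcx, a microtubule-associated protein gene of migrating neurons, measured 763 to 1204 in old and 600 to 1080 in young samples (0.19 ± 0.18).

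Sema4f, a semaphorin gene, measured 205, 305, 294, 309 and 296 in old and 852, 928, 389, 725 and 722 in young samples (log2 fold change -1.31 ± 0.23, limma adjusted p = 0.0399). Coro2b, which encodes an actin-binding coronin, measured 981 to 1073 in old and 1336 to 1919 in young samples (-0.76 ± 0.10, adjusted p = 0.034). Abr, a regulator of small GTPases, measured 4237 to 5316 and 7034 to 9184 (-0.72 ± 0.10, adjusted p = 0.034). The endophilin gene Sh3gl3 measured 159 to 392 and 441 to 754, the tetraspanin gene Tspan18 173 to 308 and 450 to 814, and the septin gene Sept5 246 to 392 and 585 to 1100. Of the exon bases of Sept5, 56.4% are also assigned to Gm49601 and 48.6% to Gp1bb, both on the same strand, so that its reads are uncertain.

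Mlycd, malonyl-CoA decarboxylase of fatty acid metabolism, measured 126, 138, 217, 188 and 180 in old and 587, 631, 648, 425 and 257 in young samples (log2 fold change -1.53 ± 0.27, limma adjusted p = 0.0404). Fbxw8, a ubiquitin ligase subunit gene, measured 198 to 466 and 677 to 903, and 33.4% of its exon bases lie opposite Gm9754. Nr2f6, an orphan nuclear receptor gene, measured 46.8 to 72.3 and 88.9 to 180, its exons sharing 54.4% of their bases with Ocel1 on the opposite strand. Without young samples 1 and 2 the call of Nr2f6 was lost (log2 fold change -0.97, limma adjusted p = 0.0602). Kbtbd11, with 24.8% of its exon bases opposite Gm37844, measured 344 to 452 and 579 to 875, and Tmem141 492 to 556 and 821 to 1432. Of 76 nuclear-encoded respiratory chain genes, 0 were called by limma or edgeR and 13 by DESeq2, and 43 were lower at an unadjusted p under 0.05. All 76 fitted changes were below 0, with a median of -0.32, against -0.17 without young samples 1 and 2.

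Of 14 GABA receptor genes, Gabra2 was called. This subunit of synaptic GABA-A receptors measured 509, 625, 743, 585 and 643 in old and 1528, 984, 1036, 1135 and 916 in young samples (log2 fold change -0.84 ± 0.15, limma adjusted p = 0.0405). The median of the list was -0.56, and without young samples 1 and 2 it was -0.02, while the number called lower went from 1 to 4. Of 10 general neuronal markers, 0 were called by limma, edgeR or DESeq2 and 2 were higher at an unadjusted p under 0.05, and the median of -0.28 became 0.15 without these libraries. Of 7 excitatory markers, 0 were called by limma or edgeR, 0 reached an unadjusted p under 0.05 and DESeq2 called 2, and the median of -1.0 became 0.03 without them. Slc17a7, the vesicular glutamate transporter of cortical excitatory neurons, measured 269 to 877 in old samples, 5525 and 2321 in young samples 1 and 2 and 401 to 1159 in the other young samples.

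Astrocyte genes also depended on these libraries. Over the 10 samples, 0 of 10 astrocyte markers were called by limma, edgeR or DESeq2 and 0 reached an unadjusted p under 0.05, with a median log2 fold change of -0.33. Without young samples 1 and 2, 8 of 10 were called lower, with a median of -1.40. Over all genes, 796 were called in that fit (4.2%), 527 of them lower. The 2 libraries had been set apart partly by their low Gfap. Leaving them out raises the young astrocyte level, so that these calls are no independent test of astrocyte genes. Gfap measured 4760 to 6656 in old samples, between the low values of young samples 1 and 2 and the high values of young samples 3 to 5. Its log2 fold change was -0.28 ± 0.69 (limma adjusted p = 0.854) in all samples and -1.55 without the 2 libraries (adjusted p = 0.0033). Cholesterol synthesis genes followed, with 0 of 23 called by limma, 1 lower by edgeR, 1 lower by DESeq2 and 4 lower at an unadjusted p under 0.05 over the 10 samples, and 9 called lower without young samples 1 and 2.

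**Figure D4:**
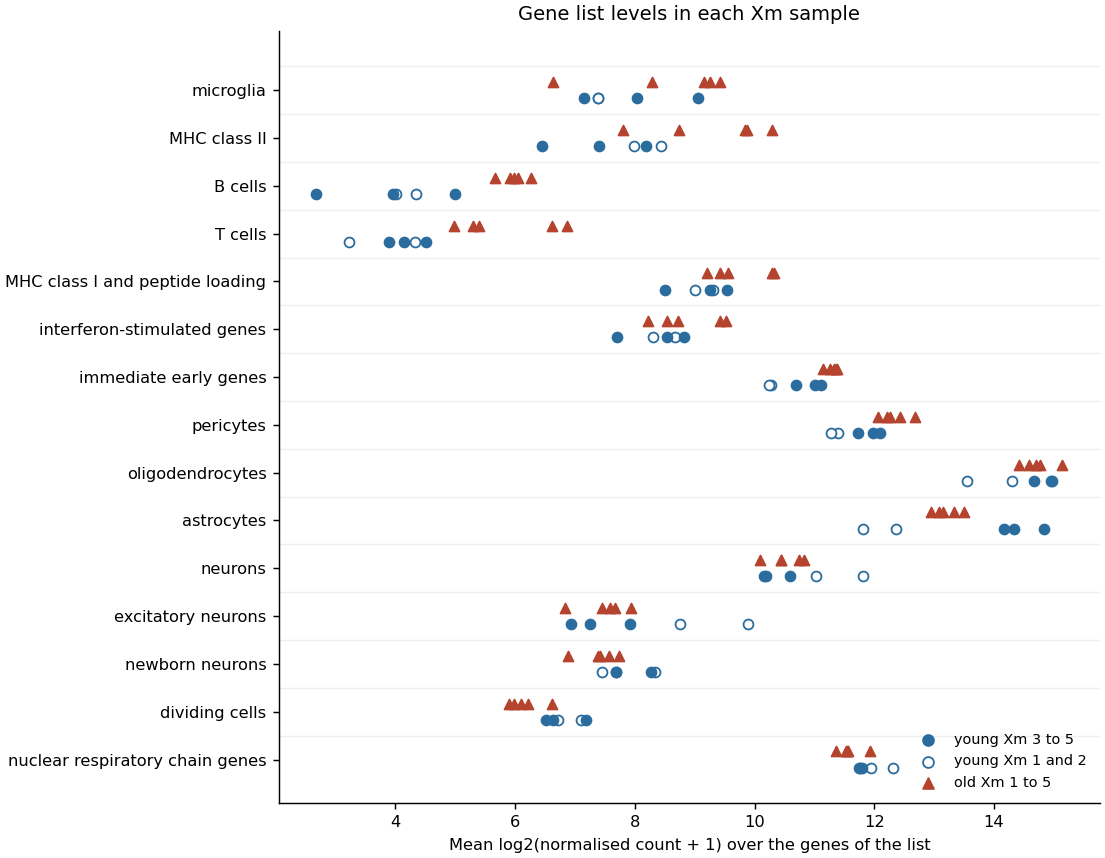
Each point is the mean log2(normalised count + 1) over the genes of a list in 1 Xm sample, with triangles for old samples, filled circles for young samples 3 to 5 and open circles for young samples 1 and 2. List means of old and young samples do not overlap for B cell, T cell and immediate early genes. For the last the gap is narrow, 11.15 or more in old and 11.11 or less in young samples. By gene, 3 of 5 B cell, 1 of 3 T cell and 7 of 23 immediate early genes lay apart, against 6.63% of all genes. The open circles lie low for astrocytes and high for excitatory neurons.

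Lists of chromatin and genome maintenance genes are set beside the shares over all genes. These were 0.85% by limma, 0.924% by edgeR, 9.09% by DESeq2 and 20.3% at an unadjusted limma p under 0.05. No difference from these shares was tested. Of 46 histone-modifying enzymes, 0 were called by limma or edgeR and 3 by DESeq2, with 8 higher and 3 lower at an unadjusted p under 0.05 and a median of 0.06. Of 15 genes of DNA methylation, 0 were called by limma or edgeR and 1 by DESeq2, with 3 higher and 2 lower (median -0.01). Of 29 DNA repair genes, 0 were called by limma or edgeR and 1 by DESeq2, with 2 higher and 3 lower (median -0.01). Of 17 senescence genes, 0 were called by limma or edgeR and 2 by DESeq2, with 2 higher and 1 lower (median -0.03). Without young samples 1 and 2, these 4 medians lay between -0.10 and 0.01, and 1 DNA repair gene and 1 senescence gene were called higher. A miss of the threshold does not show that these genes were unchanged.

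On the X chromosome, 5 of 652 genes tested were called (0.767%), a share close to that of all genes, and the 5 were higher in old samples. Tktl1, a transketolase-like gene, measured 85.6, 77.8, 101, 111 and 127 in old and 20.4 to 52.2 in young samples (log2 fold change 1.47 ± 0.27, limma adjusted p = 0.0411). Adgrg2, an adhesion G protein-coupled receptor gene, measured 267 to 460 and 107 to 204 (1.13 ± 0.22, adjusted p = 0.0473), and Prrg1, which encodes a membrane protein with a Gla domain, 1537 to 2153 and 593 to 1200 (0.96 ± 0.17, adjusted p = 0.0411). Mid1, a microtubule-associated ubiquitin ligase gene at the boundary of the pseudoautosomal region, measured 381, 406, 405, 415 and 474 in old and 156, 220, 250, 275 and 260 in young samples (0.86 ± 0.16, adjusted p = 0.0437). Sh3kbp1, an adaptor of receptor endocytosis, measured 2020 to 2556 and 1206 to 1749 (0.58 ± 0.11, adjusted p = 0.0439). Without young samples 1 and 2, 22 X-linked genes were called, beside 796 of all genes (4.2%). With old sample 2, 3, 4 or 5 or young sample 2 or 4 left out, 0 X-linked genes were called.

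Xist, the RNA that coats the silenced X, was not called, with 8378, 8957, 9566, 8952 and 9144 in old and 9333, 10571, 7613, 8301 and 7504 in young samples (log2 fold change 0.07 ± 0.11, limma adjusted p = 0.772). Hprt, a purine salvage gene and the locus of the reporters, measured 472 to 767 in old and 322 to 1082 in young samples (0.16 ± 0.29, adjusted p = 0.801). Of 14 factors of X inactivation, 0 were called by limma or edgeR and 3 by DESeq2, with 3 higher and 1 lower at an unadjusted p under 0.05 and a median of 0.10, which was 0.20 without young samples 1 and 2. Of 12 genes that escape inactivation, 1 was called (Mid1).

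Of the X-linked genes that the study chose on these libraries for a difference between Xp and Xm cells, 10 were tested and 0 were called by limma or edgeR, with 3 higher at an unadjusted p under 0.05 and 3 called by DESeq2. Sash3, a lymphocyte adaptor gene, measured 67.7, 68.4, 74.0, 53.6 and 18.8 in old and 11.7, 12.7, 31.5, 18.5 and 9.67 in young samples, with old sample 5 inside the young range (log2 fold change 1.67 ± 0.43, limma adjusted p = 0.0775). Elf4, an ETS transcription factor gene, measured 128 to 156 and 46.2 to 98.5 (0.90 ± 0.22, adjusted p = 0.0716). Without young samples 1 and 2, 1 of the 10 genes was called higher, Elf4 (log2 fold change 1.07, limma adjusted p = 0.0426). Was, an actin regulator of blood cells, measured 13.1 to 27.6 and 2.93 to 10.5 (1.63 ± 0.38, adjusted p = 0.0653). Tlr7, a sensor of single-stranded RNA, measured 11 to 117 in old and 38.9 to 159 in young samples, and Cysltr1, a leukotriene receptor gene, 0 to 26.9 and 3.87 to 52.7, and for both the groups overlapped and the sign of the difference changed when single libraries were left out. These genes are also expressed by microglia and lymphocytes, whose markers are given above, and the part of those cells was not tested.

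The age difference was then set beside that in the Xp samples, sorted from the same pools of old and young hippocampi. In Xp samples 42 of 19018 genes were called (0.221%), 34 of them higher (0.179%) and 8 lower (0.0421%) in old. Of the 161 genes called in Xm samples, 161 had the same sign in Xp samples, 133 had an unadjusted limma p under 0.05 there and 15 were called. The shares of all genes with the same sign in both sets, or with such a p in Xp samples, are not given here. The 161 and the 133 can therefore not be read as particular to these genes. The median absolute log2 fold change of the 161 was 0.91 in Xm and 0.56 in Xp samples, values that are not comparable as evidence because the genes were chosen in Xm. Xm and Xp samples of one pool share mice and preparation, so that this is not an independent repeat.

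Klk6 measured 367, 365, 576, 287 and 289 in old and 55.2, 88.6, 72.3, 98.7 and 86.7 in young Xp samples (log2 fold change 2.19, limma adjusted p = 0.0024). The test of the difference in the age effect gave 1.12 for Klk6 (unadjusted p = 0.00066), which was not called after adjustment over all genes. C4b measured 8928 to 13141 in old and 1473 to 3342 in young Xp samples (2.22, adjusted p = 0.0019), Spp1 3211 to 4480 and 776 to 1407 (1.95, adjusted p = 0.00043) and Serpina3n 929 to 1134 and 389 to 618 (1.07, adjusted p = 0.01). Of the 30 genes named for a large change or small p in Xm samples, 5 were called in Xp samples.

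No gene differed in its age effect between Xm and Xp cells after adjustment: 0 of 19133 were called by limma and 0 by edgeR, and 373 (1.95%) had an unadjusted limma p under 0.05. With the pool as a block the number called was also 0, with 971 at an unadjusted p under 0.05. A single gene, Lyl1, a transcription factor gene of blood cell development, was called when young Xm sample 3 was left out (3.08, adjusted p = 0.0264). A miss of this threshold does not show that ageing was alike in the 2 populations.

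**Figure D5:**
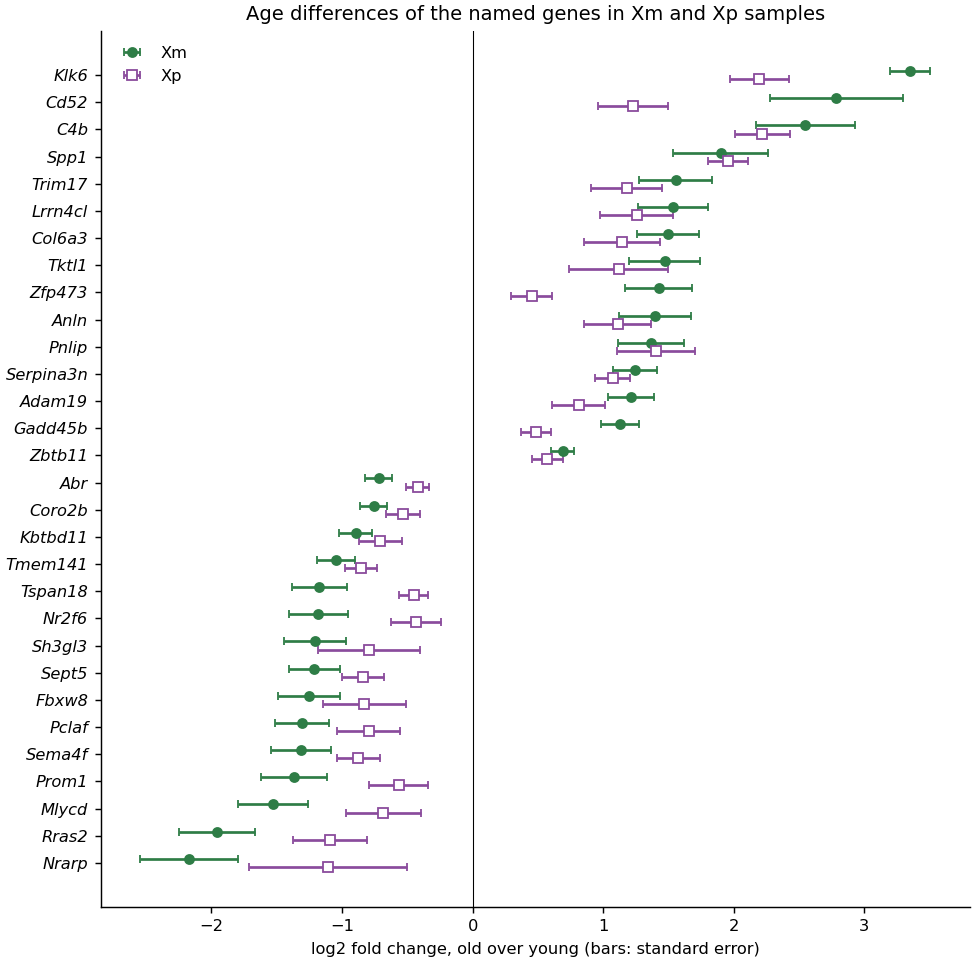
Points give the log2 fold change of old over young in Xm samples (filled circles) and Xp samples (open squares) with SE bars for the 30 named genes, which were chosen in Xm samples. The 2 estimates share their sign for each gene, Klk6 lies at 3.35 in Xm and 2.19 in Xp, and 0 genes were called for a difference between the 2.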

How the data were processed

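Sequencing reads were aligned to GRCm38 with STAR 2.5.2b and counted per gene with featureCounts of Subread 1.5.2, and the authors deposited a signal, gene counts divided by DESeq2 size factors, per the labels and the study's methods. The deposited tables also hold the authors' log2 fold changes and p-values of Xp against Xm, made with DESeq2, which were not used. Each of the 20 columns used was divided by its step to recover whole reads (100% of values were whole multiples at a tolerance of 1e-06). The last, incomplete row of the young table was dropped. There were 22387 genes for old and 19345 for young samples, and 19133 in both were joined by identifier. Of the 3254 genes of the old table alone, 2148 lie beyond the last identifier of the young table used here and are not analysed here.

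The 10 Xm columns were normalised together by median-of-ratios factors and tested with limma 3.58.1 (trend, robust; R 4.3.3) on log2(normalised count + 1), two-sided, for genes with a mean of at least 10, with Benjamini-Hochberg adjustment and a threshold of 0.05. The study states no test of old against young. edgeR 4.0.16 and DESeq2 1.42.0 on the recovered reads, and other scalings, pseudocounts, filters and sample sets, were alternatives. The script was tested on simulated data. Replicates were pools of different mice.

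The genes named were, per direction, the 12 with the largest change and the 5 with the smallest p among called genes whose groups do not overlap (6.63% of all genes) and whose higher group averages at least 100, then members of gene lists, Xist, Hprt and the X-linked genes of the study, and 2 genes that the rule gave are not reported here. Members and lists were chosen with earlier results of these data known. Gene positions are from GENCODE M21 on GRCm38, which held 99.8% of the joined genes.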

Additional observations from a re-analysis of the deposited data

Results flagged for a closer look

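Of 210 groups of 5 values examined, 8 had 1 sample far from the other 4, and chance gives about 1 in 20 such groups. Col6a3 measured 318 in old Xm sample 2 against 191 to 220 in the other old samples, and Sema4f 205 in old sample 1 against 294 to 309. Coro2b measured 1336 in young sample 2 against 1762 to 1919, and Ifit2 543 in young sample 1 against 798 to 870. For these 4 genes the odd sample lay within its own group's side of the difference. Tlr7 measured 159 in young sample 5 against 38.9 to 61.2 in the other young samples, and Hprt 1082 in young sample 1 against 322 to 519. The mean log2 level of 2 neutrophil genes was 6.06 in old sample 3 against 2.55 to 3.37 in the other old samples, and that of the heat shock proteins was 12.2 in young sample 4 against 12.6 to 12.8.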

How the results depend on the processing

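The number of called genes was 161 in the fit reported, and rested on single samples: it lay between 1 and 223 with 1 sample left out, and the number of X-linked genes called between 0 and 5. It was 288 with scaling to total reads, which moved the median log2 fold change to 0.06 and the share of higher calls to 83%, and 1723 with DESeq2 (54% higher), 1076 in a fit of all 20 samples (56% higher) and 796 without young Xm samples 1 and 2 together (34% higher), against 61% in the fit reported. With genes of a mean of at least 100, 50% of 187 calls were higher. X-linked calls, with 652 X-linked genes tested in the fit reported, were 8 with total reads and 43 with DESeq2. They were 32 with all 20 samples and 22 without young Xm samples 1 and 2 together. The shares called over all genes were 9.09% with DESeq2, 5.68% with all 20 samples and 4.2% without these 2 samples. No difference of the X-linked counts from these shares was tested. With a replicate block, 1 gene and 0 X-linked genes were called, but the numbers do not pair old with young samples, which came from different mice: correlations of same-numbered deviations were 0.162, 0.0478, -0.0389, 0.0469 and 0.0511, and 0 old samples correlated best with their own number. The number of genes called for a difference in age effect between Xm and Xp samples lay between 0 and 1 with 1 Xm sample left out, and was 0 with the replicate block. Leaving out Xp samples was not tried. Of 41 called genes that the naming rule gave, 40 held with edgeR, 41 with DESeq2 and 39 without young samples 1 and 2 together, and 1 with the replicate block. Among genes not called, the sign of Tlr7 turned with edgeR (0.033), DESeq2 (0.032) and single samples left out (-0.37 to 0.45). That of Cysltr1 turned without young samples 1 and 2 (0.26) and with single samples left out (-1.22 to 0.13), that of Xlr without young samples 1 and 2 (-0.013) and with single samples left out (-0.10 to 0.33), that of Xlr3b with edgeR (-0.079), DESeq2 (-0.079) and single samples left out (-0.14 to 0.35), and that of Trpc5 with single samples left out (-0.12 to 0.30). The cause of these changes was not tested. Depth was 23465058 to 27877893 reads in the old and 26651599 to 28518774 in the young samples, and old samples 3, 4 and 5 lay below the young range. Genes below a mean of 100 had a median SE of 0.37 on the log2 scale, against 0.12 above 1000.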
